A study of Mus musculus with 32 samples.

Results

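Late 1-cell peaks kept open by A-485 are 1928 regions of open chromatin in mouse embryos, out of 10214 that were listed for late 1-cell embryos treated with DMSO. Each of them had no overlapping peak in the early 2-cell DMSO list but overlapped a peak of the early 2-cell A-485 list by at least 1 bp. ATAC-seq, which marks open DNA by the insertion of adapters, was done at the late 1-cell and the early 2-cell stage, and total RNA-seq in zygotes and at the early and late 2-cell stages. All embryos came from in vitro fertilization of wild-type B6D2F1/J oocytes with B6D2F1/J sperm from parents of 6 to 8 weeks of age, and were grown in KSOM medium. A-485, an inhibitor of the catalytic activity of the acetyltransferases CBP and p300, was given at 10 µM between 4 and 20 hours after insemination (hpi). Embryos grown on beyond this window were washed, and controls had DMSO. The window ran from the zygote to the early 2-cell stage, so only late 2-cell embryos were collected after the wash-out. In the paper, the histone acetylation that was stained came back to the control level after washing, and all treated embryos later arrested. Below, "after A-485" stands for treated embryos of any stage. Each stage and treatment had 2 RNA libraries, while the ATAC-seq replicates were merged by the authors into 4 lists, 1 per stage and treatment.

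The other late 1-cell DMSO peaks were divided into 4637 that overlapped an early 2-cell DMSO peak (still-open peaks) and 3649 that were in neither early 2-cell list (closed peaks). The members were thus chosen by the presence or absence of a called peak in 3 of the 4 lists, and the numbers in each class are a description. A peak missing from the early 2-cell DMSO list may still have had signal under the threshold of that list, and the lists give no value there. The lists give no values per replicate, so peak values were compared without a test, and the 95% Wilson intervals given below cover the counting of peaks only.

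Fertilized eggs start with chromatin inherited from the gametes and little transcription of their own, and the embryo's genome is switched on in a minor wave around the first division and a major wave at the late 2-cell stage. CBP and p300 acetylate histones at enhancers and promoters, where open chromatin lets transcription factors and RNA polymerase bind. Promoters rich in CpG and in GC boxes, the sites of Sp and Klf factors, are commonly open whether or not the gene is transcribed.

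The 3 strongest promoter peaks and the 3 strongest distal peaks in the early 2-cell A-485 list are shown by their sequence, as the most enriched examples of the 2 kinds. For the promoter peaks this is the part of the peak before the first annotated exon that the peak overlaps. It is at chr9:13246837-13246916 for Ccdc82, at chr16:13940494-13940628 for Mpv17l and at chr1:175625636-175625865 for Fh1, the fumarate hydratase of the citric acid cycle. At Mpv17l this exon is inside the gene, which runs on the plus strand at chr16:13903161-13949619. For the distal peaks these are the 300 bases around the late 1-cell summit, which is outside annotated genes in all 3. The one nearest to Gm21188 is at chr13:120070873-120071172, the one nearest to the tyrosine kinase gene Fer at chr17:63849653-63849952, and the one nearest to Gm42208 at chr3:36330686-36330985. Sequences are the plus strand of the RefSeq copy of GRCm38, and capitals mark matches to the short motifs searched.
Ccdc82: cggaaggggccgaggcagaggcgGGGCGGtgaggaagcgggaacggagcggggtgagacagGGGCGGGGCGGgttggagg
Mpv17l: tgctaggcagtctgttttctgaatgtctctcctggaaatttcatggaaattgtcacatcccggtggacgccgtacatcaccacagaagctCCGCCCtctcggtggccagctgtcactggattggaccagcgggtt
Fh1: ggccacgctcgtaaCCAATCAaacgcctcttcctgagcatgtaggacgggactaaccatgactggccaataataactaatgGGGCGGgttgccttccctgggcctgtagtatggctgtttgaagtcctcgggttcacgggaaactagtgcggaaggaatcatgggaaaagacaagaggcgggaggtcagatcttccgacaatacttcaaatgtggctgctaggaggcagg
Gm21188: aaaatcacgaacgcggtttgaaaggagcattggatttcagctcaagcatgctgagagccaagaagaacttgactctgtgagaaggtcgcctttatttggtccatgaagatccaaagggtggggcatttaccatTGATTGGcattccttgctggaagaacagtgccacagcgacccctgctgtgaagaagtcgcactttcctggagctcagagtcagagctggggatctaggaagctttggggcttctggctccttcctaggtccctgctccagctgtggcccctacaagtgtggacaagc
Fer: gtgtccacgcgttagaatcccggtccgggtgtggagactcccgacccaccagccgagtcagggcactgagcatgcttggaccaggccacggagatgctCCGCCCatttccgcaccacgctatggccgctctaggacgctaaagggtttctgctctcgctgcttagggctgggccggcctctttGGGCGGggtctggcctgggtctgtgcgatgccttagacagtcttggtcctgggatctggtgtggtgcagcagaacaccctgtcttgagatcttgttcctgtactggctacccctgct
Gm42208: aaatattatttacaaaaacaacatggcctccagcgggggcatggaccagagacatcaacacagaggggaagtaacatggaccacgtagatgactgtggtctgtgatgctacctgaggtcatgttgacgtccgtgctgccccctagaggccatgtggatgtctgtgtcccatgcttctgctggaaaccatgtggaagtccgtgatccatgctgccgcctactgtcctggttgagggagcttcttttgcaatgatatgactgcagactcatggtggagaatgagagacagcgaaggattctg
In the stretch at Ccdc82, all 3 matches are GC boxes, 2 of them overlapping, and 76.3% of its 80 bases are G or C, against 54.1% at Mpv17l and 53.0% at Fh1. The stretch at Fh1 holds 1 GC box and 1 NF-Y motif in 230 bases, and its gene runs on the minus strand. Of the distal stretches, the one near Fer had 61.7% G or C and the one near Gm21188 52.0%, so these examples do not separate by base content. The peak near Fer holds 2 GC boxes, the peak near Gm21188 has 1 NF-Y motif, and the peak near Gm42208 has no match to any motif searched.

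Kept-open peaks were mostly promoter peaks. At most 1.0 kb from a start site were 1151 of them (59.7%, 57.5 to 61.9%), against 81.0% of still-open and 20.99% of closed peaks. Distal peaks, over 2.5 kb from any start site, made up 695 (36.1%, 33.9 to 38.2%), against 16.6% and 70.9%. A start site was inside the peak for 50.9% of kept-open, 74.5% of still-open and 11.9% of closed peaks, so kept-open peaks lay between the other classes in each of these shares.

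Of the 695 distal kept-open peaks, 433 (62.3%) had their late 1-cell summit between genes, 225 (32.4%) in an intron and 37 (5.32%) in an exon. The nearest start site was a median of 12230 bp away, with quartiles of 6506 and 25760 bp. The intergenic shares of the other distal classes were alike, 63.8% of still-open and 61.7% of closed distal peaks. Among all kept-open peaks, 3.27% were on chromosome X, close to the 3.13% of still-open and 3.18% of closed peaks. Between the autosomes, kept-open peaks made up from 14.3% of the late 1-cell peaks on chromosome 11 to 22.0% on chromosome 1.

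Few of the peaks lay beside an early 2-cell DMSO peak. Only 52 of the 1928 kept-open peaks had an early 2-cell DMSO peak within 500 bp, and the median gap was 24940 bp. In the 500 kb on either side, the median number of early 2-cell DMSO peaks was 14 for kept-open, 25 for still-open and 13 for closed peaks. The median number of protein-coding genes in the same window was 11, 15 and 9.

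Among all late 1-cell peaks with no early 2-cell DMSO peak, 1928 of 5577 (34.6%, 33.3 to 35.8%) were kept open, and the share depended on location. It was 60.0% (57.8 to 62.2%) for 1917 promoter peaks, 21.7% (17.8 to 26.1%) for 378 peaks between 1.0 and 2.5 kb away, and 21.2% (19.8 to 22.6%) for 3282 distal peaks. When these peaks were divided into 3 parts by their fold enrichment in the late 1-cell DMSO list, the share of promoter peaks rose from 49.6% in the weakest through 59.4% to 71.3% in the strongest. Among distal peaks the weakest and the middle part had 18.2% and 17.2%, whose intervals overlap, and the strongest had 27.9%. In every part the promoter share was above the distal share, with no overlap of the intervals.

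**Figure D1:**
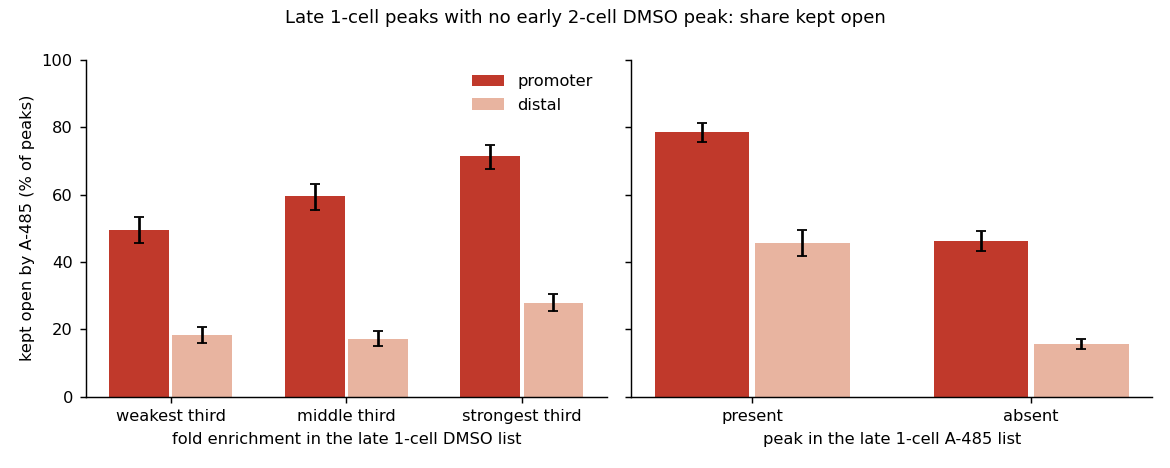
Share of late 1-cell DMSO peaks without an early 2-cell DMSO peak that were kept open by A-485, in percent, for promoter (dark) and distal (light) peaks, by strength (left) and by presence in the late 1-cell A-485 list (right). Bars start at 0 and error bars are 95% Wilson intervals. Promoter peaks ranged from 46.2% to 78.5% and distal peaks from 15.6% to 45.6%.

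The late 1-cell A-485 list played no part in choosing the peaks. It held 956 of the 1928 kept-open peaks (49.6%, 47.4 to 51.8%), against 75.1% of still-open and 14.9% of closed peaks. So for 972 kept-open peaks, A-485-treated embryos had a listed peak at early 2-cell but not at late 1-cell. Of the late 1-cell peaks with no early 2-cell DMSO peak, those that were also in the late 1-cell A-485 list were kept open in 63.8% (61.3 to 66.2%), the others in 23.8% (22.6 to 25.2%). For promoter peaks these shares were 78.5% and 46.2%, and for distal peaks 45.6% and 15.6%. When each list was cut to the length of the shortest by fold enrichment, the share of kept-open peaks in the late 1-cell A-485 list was 75.6%, and 78.8% of kept-open peaks were at promoters, so both values move with the length of the lists.

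Kept-open peaks made up 1902 of the 7688 early 2-cell A-485 peaks without a DMSO peak (24.7%, 23.8 to 25.7%), when counted on that list. The other 5786 had no late 1-cell kept-open peak under them. In 1340 cases (69.5%) the early 2-cell A-485 peak covered at least 90% of the late 1-cell peak, and the median overlap was 418 bp.

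The strength of a peak is given here as the fold enrichment of the authors' peak caller. In the late 1-cell DMSO list the median was 6.82 for kept-open peaks, 7.30 for still-open and 6.51 for closed peaks, and the quartiles of the 3 classes overlapped. Promoter and distal kept-open peaks were alike there, with medians of 6.75 and 7.02. In the early 2-cell A-485 list, which the rule used, kept-open peaks had a median of 7.91, with 8.27 at promoters and 7.54 at distal sites. The other A-485 peaks without a DMSO peak had a median of 6.89, and those with a DMSO peak 8.53. The fold enrichment was higher in the early 2-cell A-485 list than in the late 1-cell DMSO list for 1366 of the 1928 peaks (70.9%), though values of different lists carry their own backgrounds. The rise is not particular to kept-open peaks. The 4028 still-open peaks with an early 2-cell A-485 peak had a median of 9.195 there, against 7.30 for all still-open peaks in the late 1-cell DMSO list. The median width was 476 bp, against 578 bp for still-open and 363 bp for closed peaks.

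**Figure D2:**
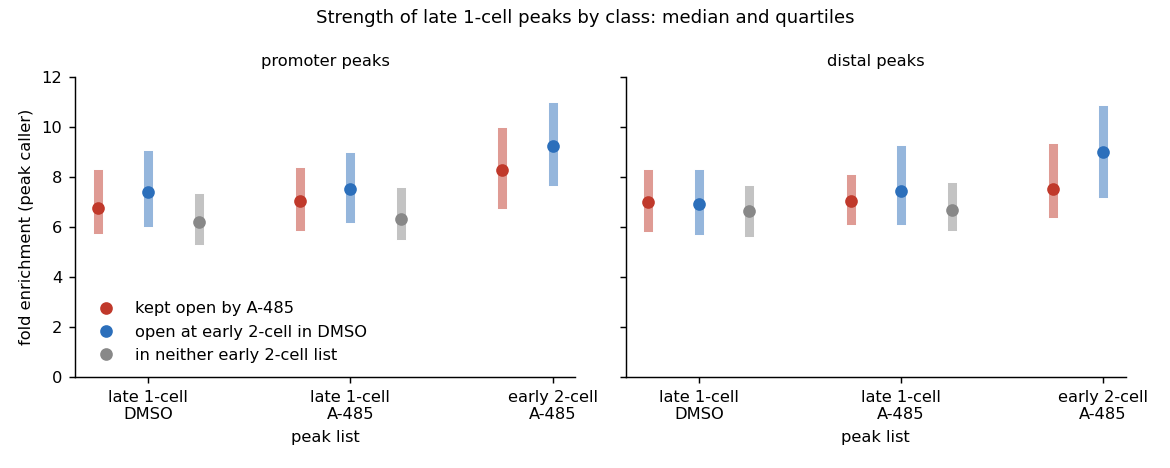
Fold enrichment given by the peak caller (y axis, linear from 0) for the 3 classes of late 1-cell DMSO peaks at promoters (left) and distal sites (right), in each list that holds the peak. Points are medians and bars run from the lower to the upper quartile, so kept-open promoter peaks are at 6.75 in the late 1-cell DMSO and 8.27 in the early 2-cell A-485 list.

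The 6 strongest promoter peaks had a fold enrichment of 15.4 to 16.2 in the early 2-cell A-485 list. The peak over the start of Ccdc82 went from 7.42 in the late 1-cell DMSO list to 16.2, the one at Mpv17l from 9.22 to 16.1, and the one at Fh1, whose summit is in an intron of the overlapping gene Kmo, from 11.1 to 16.0. The others lay at Depdc1a (15.9), Vps41 (15.4), a subunit of the tethering complex for lysosomal fusion, and Lta4h (15.4), the leukotriene A4 hydrolase. All of them except the one at Vps41 were also in the late 1-cell A-485 list, and the nearest early 2-cell DMSO peak was 26.4 to 279 kb away. The 6 strongest distal peaks, near Gm21188 (17.4), Fer (15.7), Gm42208 (15.6), Wdr17 (14.4), Rab37 (14.2) and Abi3bp (14.1), lay 46.5 to 155 kb from an early 2-cell DMSO peak. Of these, 3 were in the late 1-cell A-485 list, near Gm42208, Rab37 and Abi3bp.

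At the edge of the rule, the smallest overlaps with the A-485 list were 3 bp at Tmed6, 7 bp at Gpm6b and 13 bp near Gm43717, and the smallest gaps to a DMSO peak were 2 bp at Nob1, 11 bp at Tmed6 and 32 bp at Smarca5. Just outside it, a peak shared by Abtb1, Podxl2 and Gm15612 missed an A-485 peak by 7 bp, one near Fosb by 37 bp and one near Gm13172 by 42 bp, while a peak near Gm6475 overlapped a DMSO peak by 5 bp, one at Eif4g2 by 13 bp and one at Lnx2 and Polr1d by 21 bp. Only 5 kept-open peaks were overlapped by under 50 bp.

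The 300 bases around the late 1-cell summit showed what the classes share in sequence. Kept-open promoter peaks had a median GC content of 62.0%, against 63.3% for still-open and 55.8% for closed promoter peaks. Their median ratio of observed to expected CpG was 0.70, against 0.81 and 0.41, and 65.9% of them had a ratio of at least 0.6 with at least 50% GC, against 84.5% and 29.5%. Among distal peaks the classes were closer in GC content, at 52.3%, 51.7% and 50.7%, with CpG ratios of 0.33, 0.31 and 0.21. Repeat bases, soft-masked in the reference, took a mean of 12.6% in kept-open, 24.9% in still-open and 17.6% in closed distal peaks.

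**Figure D3:**
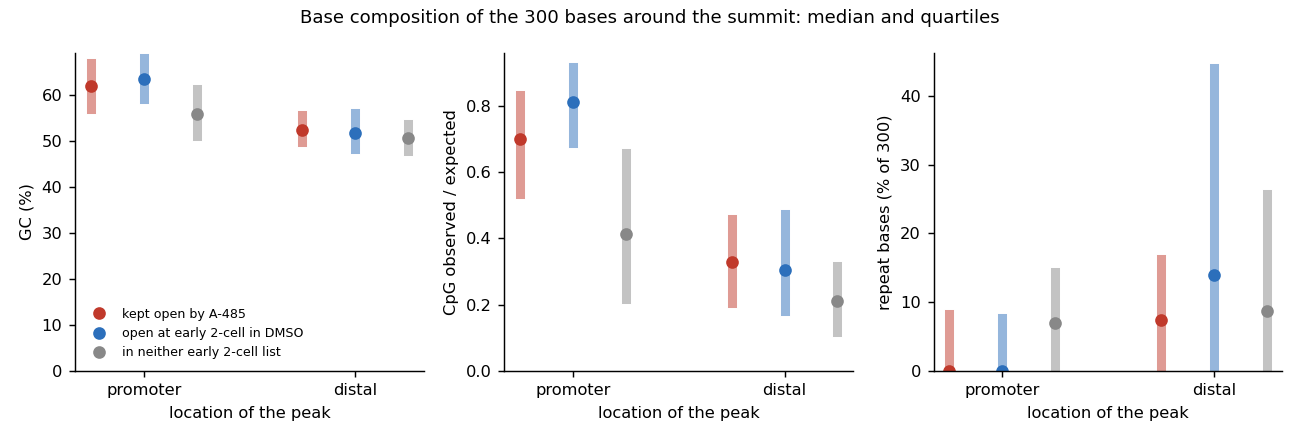
GC content in percent (left), observed over expected CpG (middle) and the share of repeat bases in percent (right) in the 300 bases around the late 1-cell summit, for the 3 classes at promoters and distal sites. Points are medians and bars the quartiles. At promoters, kept-open peaks (0.70) lie between still-open (0.81) and closed peaks (0.41) in CpG.

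Short motifs were searched on both strands: the GC box (GGGCGG), NF-Y (CCAATCA), CRE (TGACGTCA), NRF1 (GCGCATGCG), ETS (CCGGAAGT), BANP (TCTCGCGA), the E-box (CACGTG), YY1 (AAGATGGCG), NR5A2 (TCAAGGTCA), CTCF (CAGGGGGCG), OBOX (GGATTA) and the TATA box (TATAAA). The GC box and the CTCF motif share letters and can overlap. A match describes letters and is not a bound site. Of all 10214 late 1-cell peaks, 45.9% held a GC box, 15.2% the NF-Y motif, 11.9% the OBOX motif, 3.27% the CTCF, 2.095% the BANP and 1.88% the YY1 motif, and of 32851 RefSeq promoters of the same length 35.7%, 7.82%, 7.06%, 1.67%, 1.00% and 1.40% did.

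At promoters, a GC box was in 65.3% (62.5 to 67.9%) of kept-open, 76.7% of still-open and 35.8% of closed peaks. The BANP motif, an element of CpG-rich promoters, was in 15 of 1151 kept-open promoter peaks (1.303%, 0.79 to 2.14%), in 5.06% (4.40 to 5.81%) of still-open and in 1 of 766 closed promoter peaks. The YY1 motif followed with 1.83% (1.20 to 2.77%), 4.02% (3.44 to 4.70%) and 0.65%. NF-Y was in 15.4%, 21.5% and 9.53%, while the CRE was in 5.13% (4.00 to 6.56%) of kept-open and 4.47% (3.86 to 5.18%) of still-open promoter peaks, whose intervals overlap. So kept-open promoters held BANP and YY1 letters less often than still-open ones, by intervals that do not overlap and that count peaks only.

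Distal peaks gave another order. The NF-Y motif was in 102 of 695 kept-open distal peaks (14.7%, 12.2 to 17.5%), above both still-open (8.82%, 7.02 to 11.0%) and closed distal peaks (10.5%, 9.35 to 11.7%). The OBOX motif, the letters bound by the homeodomains of Obox and Otx factors, was in 9.07% (7.15 to 11.4%) of kept-open, 32.7% (29.5 to 36.1%) of still-open and 17.0% (15.6 to 18.5%) of closed distal peaks. Repeat bases had the same order (means of 12.6%, 24.9% and 17.6%), and their part in the OBOX matches was not tested. A GC box was as common in kept-open (25.0%) as in still-open (25.2%) distal peaks and rarer in closed ones (11.7%). The CTCF motif was in 4.17% (2.92 to 5.93%) of kept-open, 3.11% of still-open and 1.43% (1.04 to 1.97%) of closed distal peaks. The NR5A2 motif was in 3 of 695 kept-open (0.43%, 0.15 to 1.26%) and 13 of 771 still-open distal peaks (1.69%, 0.99 to 2.86%), whose intervals overlap.

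The 1151 promoter peaks lay at 1404 genes, of which 1142 were protein-coding, and 257 peaks served more than 1 gene. For some of these genes an early 2-cell DMSO peak was within 1.0 kb of a start site, the one at the kept-open peak or another. The other 1249 genes had none. The RNA files listed 1400 of the 1404. Their RNA was measured as FPKM, fragments per kilobase of transcript scaled to the library, and tested by edgeR (quasi-likelihood F test) on the expected counts of RSEM, with Benjamini-Hochberg adjustment over all genes tested. A gene was called when the adjusted p was under 0.05, the change at least 2-fold and the mean FPKM at least 1 in either group. Levels are relative to the library, so fewer cells of a type and less RNA per cell cannot be told apart. The labels do not say that the 2 libraries of a group came from separate cultures, so p-values measure the spread between these libraries, which may be technical.

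Libraries had 13206163 to 32585987 expected counts, and the late 2-cell A-485 libraries were the shallowest, at 13206163 and 14922961. They also had 19.5% and 20.7% of counts from mitochondrially encoded genes, against 10.5% to 12.3% in the late 2-cell DMSO libraries, and the part of this difference in the results was not tested. Oocyte and early embryo markers summed to 796 to 2940 FPKM in the 12 libraries. Sperm markers summed to 1.21 to 18.9 FPKM, with 2 of 5 genes under 1 FPKM throughout. Of the other cell types, 3 lists moved with the late 2-cell groups: fibroblast markers summed to 0.13 and 0.64 FPKM in DMSO and 14.3 and 16.7 FPKM after A-485, cumulus markers to 7.15 and 11.7 against 1.66 and 2.28 FPKM, and erythroid markers to 3.53 and 4.56 against 0.43 and 0.55 FPKM, in each case the lower and the higher library. Of the fibroblast list 4 of 5 genes, all of the collagens among them, were under 1 FPKM throughout and Pdgfra reached 15.9 FPKM, while 3 of 5 cumulus and 3 of 5 erythroid genes were under 1 FPKM throughout and Amhr2 reached 10.7 FPKM. At early 2-cell the same lists also stood apart, with fibroblast sums of 0.42 and 1.09 FPKM in DMSO and 1.17 and 2.04 FPKM after A-485, cumulus sums of 0.96 and 1.04 against 0.25 and 0.40 FPKM, and erythroid sums of 1.76 and 4.71 against 0.14 and 0.90 FPKM. The part of these markers in the results was not tested.

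Many kept-open promoters belonged to genes with little RNA, though their genes reached 1 FPKM more often than all genes did. In DMSO zygotes, 57.9% of the 1400 genes had a mean of at least 1 FPKM, against 71.5% of genes at still-open and 38.1% at closed promoter peaks. The share was 56.6% in DMSO and 54.3% in A-485-treated embryos at early 2-cell, and the 2 groups' libraries ran from 54.9% to 57.9% and from 54.0% to 54.8%. At late 2-cell it was 56.1% in DMSO and 70.3% after A-485, with the libraries from 55.0% to 55.9% and from 68.4% to 69.0%. Over all 55385 genes the share was 21.1% in DMSO zygotes, and the late 2-cell shares were 22.9% and 27.4%.

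In zygotes, none of the 1101 genes at kept-open promoters that could be tested was called after A-485 treatment, against 0.00548% of all genes tested higher and 0.0657% lower. At an unadjusted p under 0.05, 44 of them differed by the test of edgeR, 5 of those by 2-fold with an FPKM of at least 1, and DESeq2 called 0 in either direction. The median log2 fold change was 0.01, and -0.01 over all genes.

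At early 2-cell, the stage at which the peaks were defined, 50 of 1187 tested genes (4.21%) had lower RNA after A-485 and 4 (0.34%) had higher RNA, against 7.9% and 0.402% of all genes tested. The share with lower RNA was under that of all genes. The 4 genes with higher RNA are too few to set apart from it, and their number was 9 without A-485 replicate 2, 9 without DMSO replicate 2, 8 with no filter on low counts, 10 with no FPKM cutoff and 10 with a replicate block. The median log2 fold change was 0.07, and 0.00 over all genes. Genes at still-open promoters had 10.5% lower and 0.39% higher, and genes at closed promoters 4.62% and 0.193%. The share with lower RNA at kept-open promoters was thus near that at closed ones. The share with higher RNA, 0.34%, was near the 0.402% of all genes, so it cannot show whether a listed peak goes with higher RNA.

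The 4 genes with higher RNA were Grin2a, Ccn2, Zik1 and Gm49366, of which Ccn2 and Zik1 are outside the rule for named genes and were chosen after their values were seen. Grin2a, a subunit of the NMDA receptor of neurons, had 0.08 and 0.33 FPKM in DMSO and 1.73 and 1.64 FPKM in A-485-treated libraries. The groups did not overlap, and the difference was 2.60 ± 0.60 (SE) on the log2 scale (adjusted p = 0.013). For Ccn2, a secreted matricellular protein, the values were 0.52 and 0.25 against 2.54 and 0.79 FPKM, and for the zinc finger gene Zik1 1.23 and 1.73 against 2.66 and 3.35 FPKM. Gm49366 was at 0 in both DMSO libraries and at 22.3 and 6.02 FPKM after A-485, and in zygotes it swung between 0 and 7.41 FPKM within the A-485 group.

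Among the genes with the largest losses at early 2-cell, Ficd and Fbxo15 were far lower in DMSO zygotes than in DMSO early 2-cell embryos. Ficd, which attaches AMP to the endoplasmic reticulum chaperone BiP, had 0.30 and 0.07 FPKM in DMSO zygotes and 41.8 and 36.3 FPKM in DMSO early 2-cell libraries. With A-485 it had 0.94 and 0.97 FPKM at early 2-cell, lower by 5.33 ± 0.15 (SE) on the log2 scale (adjusted p = 5e-10). The F-box gene Fbxo15, known as a marker of pluripotent cells, had 59.0 and 53.7 FPKM in DMSO and 10.8 and 10.0 FPKM after A-485 (-2.98 ± 0.14, adjusted p = 2.35e-08). Pwp1, a WD-repeat protein of ribosomal RNA synthesis, had 6.23 and 6.59 against 0.29 and 0.58 FPKM (-4.09 ± 0.43, adjusted p = 3.39e-05). In each of the 3 genes the groups were far apart in both libraries, though Fbxo15 also had a still-open late 1-cell peak at its promoter.

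Rplp0, the ribosomal stalk protein, had 121 and 118 FPKM in DMSO and 38.3 and 40.0 FPKM after A-485 at early 2-cell (-1.60 ± 0.10, adjusted p = 2.13e-07). The level after A-485 was near the 39.0 and 42.2 FPKM of DMSO zygotes. Ribosomal protein genes have many processed copies in the genome, so counts divided between them are uncertain. The lipase gene Mgll went from 3.70 and 1.77 to 0 and 0.02 FPKM (adjusted p = 0.00012). Ddit4l, an inhibitor of mTOR signalling, had 17.7 and 14.6 against 1.43 and 1.54 FPKM (-2.67 ± 0.21, adjusted p = 2.59e-06), and 1700021F05Rik 6.98 and 9.88 against 0.61 and 1.02 FPKM (-2.96 ± 0.45, adjusted p = 0.000633). The cardiac T-box factor Tbx20, with 11.6 and 4.73 against 0.89 and 1.14 FPKM, also had a still-open peak at its promoter. For Gabbr1, a subunit of the GABA-B receptor, the groups overlapped (2.00 and 8.63 against 0.42 and 2.06 FPKM), and it was called lower (-2.91 ± 0.52, adjusted p = 0.00218).

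At late 2-cell more genes were called in both directions. Of 1239 tested genes, 217 (17.5%) had higher RNA after A-485 and 137 (11.1%) lower, against 10.5% and 16.8% of all genes tested. The median log2 fold change was 0.55, and 0.28 over all genes. Genes at still-open promoters had 8.51% higher and 31.2% lower, and genes at closed promoters 10.3% and 11.7%. When libraries were scaled to the mitochondrially encoded genes, the counts were 122 higher (9.85%) and 215 lower (17.4%), against 6.65% and 24.4% of all genes, and the medians were -0.09 and -0.35. The balance of higher and lower calls turned with the scaling. The median of genes at kept-open promoters was above that of all genes by 0.27 and 0.26 on the log2 scale. Scaling moves all genes nearly alike, so the likeness of these 2 values is no check of the difference. This difference was 0.098 with no filter on low counts and 0.13 when protein-coding members alone were set against all genes. The genes with no late 1-cell promoter peak had a median of 0.47, with 10.6% higher and 13.4% lower, so their median was near that of the kept-open genes. The same A-485 libraries had the higher fibroblast marker sum, mostly Pdgfra, the lower cumulus and erythroid sums and the higher mitochondrial share given above, and the part of these in the counts was not tested. These libraries also came after the wash-out, and the part of the wash-out and of the later arrest in the counts was not tested.

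**Figure D4:**
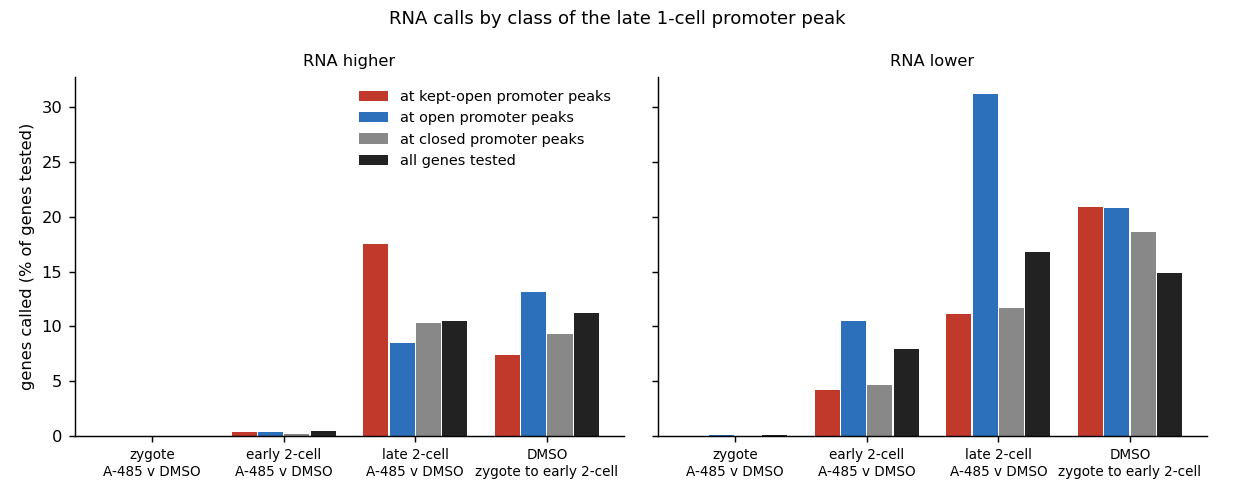
Share of tested genes called higher (left) or lower (right), in percent, by the class of the late 1-cell peak at their promoter and over all genes tested, for the 3 A-485 comparisons and for DMSO zygotes to early 2-cell. At late 2-cell, genes at kept-open promoters had 17.5% higher and 11.1% lower, against 10.5% and 16.8% of all genes, a balance that turns to 9.85% and 17.4% with mitochondrial scaling.

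Of the 217 genes with higher RNA at late 2-cell, 116 had at least 1 FPKM in DMSO zygotes and 89 in DMSO late 2-cell embryos, and 187 were protein-coding. From DMSO zygotes to early 2-cell, 40 of them (18.4%) fell and 18 (8.29%) rose, near the 20.9% and 7.41% of all tested genes at kept-open promoters. An early 2-cell DMSO peak was within 1.0 kb of a start site for 11 of the 217 (5.07%) but for 42 of the 137 with lower RNA (30.7%). Of all 1404 genes at kept-open promoters, 1249 had no such peak. The share with higher RNA was 14.6% among genes at the weakest, 16.6% at the middle and 21.3% at the strongest part of kept-open promoter peaks by early 2-cell A-485 fold enrichment. By CpG ratio, it was 19.6% in the lowest, 20.9% in the middle and 12.2% in the highest part. Genes whose peak was or was not in the late 1-cell A-485 list had 17.9% and 17.0%. The split by strength uses values of a list that chose the members, and genes that share a peak are counted separately. No trend over the parts was tested, and the splits were not repeated with mitochondrial scaling.

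At late 2-cell Gata3, a transcription factor of the trophectoderm, had 1.22 and 0.48 FPKM in DMSO and 9.06 and 15.4 FPKM after A-485 (3.47 ± 0.43 on the log2 scale, adjusted p = 5.01e-05). In DMSO zygotes it had 5.12 and 4.10 FPKM, and its fall to 2.45 and 1.98 FPKM at early 2-cell in DMSO (-1.06 ± 0.23) is just past 2-fold and is lost with DESeq2 (-0.99). Sycp3, of the synaptonemal complex of meiosis, had 21.6 and 20.2 against 77.6 and 76.7 FPKM (1.68 ± 0.18, adjusted p = 1.46e-05), and its other 8 libraries lay between 13.4 and 22.5 FPKM. Grin2a had 0.04 and 0.01 FPKM in DMSO and 6.34 and 6.94 FPKM after A-485 (adjusted p = 5.3e-06). In these 3 genes no A-485 library reached down to a DMSO library.

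Of the 5 genes named for the largest gains at late 2-cell, 4 are not annotated as protein-coding. Pantr1 went from 0.19 and 0 to 14.9 and 10.1 FPKM, 9630013D21Rik from 0.30 and 0 to 16.7 and 13.8 FPKM, and Gm37785 from 0.02 and 0 to 4.81 and 5.65 FPKM. Gm37785 has the annotation type TEC, for loci whose product is not settled. The antisense gene Gm12454 had 0 and 0.07 FPKM in DMSO and 8.93 and 5.52 FPKM after A-485, and since the sources do not say whether strand was used in counting, its reads cannot be told from those of its sense partner. The DMSO groups of all 4, and of Grin2a, were at or under 3 counts, so no fold is given.

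Of the 34 germline genes listed, 5 had a kept-open promoter peak, and 3 of the 4 tested had higher RNA at late 2-cell (2 higher and 1 lower with mitochondrial scaling), where 10.5% of all genes were higher, a count that rests on 4 genes. Taf7l, a germ cell relative of a TFIID subunit, had 0.27 and 0.22 against 3.81 and 3.47 FPKM (3.98 ± 0.72, adjusted p = 0.000964). Slc25a31, the ADP/ATP carrier of testis, had 2.03 and 3.24 against 6.78 and 6.40 FPKM (1.13 ± 0.37, adjusted p = 0.0296), a call that was lost with mitochondrial scaling (0.47, adjusted p = 0.438) and without DMSO replicate 1 (0.89, adjusted p = 0.144). Hormad1, a protein of the meiotic chromosome axis, had 34.6 and 22.5 against 18.2 and 16.4 FPKM and was not called (-0.95 ± 0.25). Zim1, an imprinted zinc finger gene, had 1.38 and 1.51 against 3.56 and 2.67 FPKM (1.73 ± 0.37, adjusted p = 0.00312, and 0.0501 with mitochondrial scaling).

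Of 463 zinc finger genes (Zfp, Zkscan, Zscan and Zbtb by symbol), 41 (8.86%) were at kept-open promoters, against 5.18% of all annotated protein-coding genes. Of the same list, 114 genes were at still-open and 16 at closed promoter peaks. Whether the share goes beyond that of late 1-cell promoter peaks of any class was not tested. At late 2-cell 16 of the 41 had higher and 4 lower RNA, with a median of 0.81 on the log2 scale, and 8 higher and 5 lower with mitochondrial scaling, with a median of 0.17. Of all genes tested 10.5% were higher and 16.8% lower, or 6.65% and 24.4% with mitochondrial scaling. In DMSO embryos from zygote to early 2-cell, 4 of the 41 rose and 13 fell, where 11.2% and 14.9% of all genes did. The most abundant of them did not show the gain: Zfp638, which had a still-open peak too, had 65.7 and 59.5 against 15.5 and 25.6 FPKM (-1.70 ± 0.14, adjusted p = 1.03e-06), while Zfp58 (2.30 and 3.35 against 3.52 and 5.01 FPKM), Zfp62 (21.5 and 17.3 against 15.0 and 20.7 FPKM) and Zfp955a (7.85 and 6.42 against 8.04 and 5.75 FPKM) were not called.

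The 137 genes with lower RNA at late 2-cell all had at least 1 FPKM in DMSO late 2-cell embryos, and 118 had it in DMSO zygotes. Phrf1, a PHD and RING finger protein, had 81.9 and 83.3 FPKM in DMSO and 3.63 and 2.92 FPKM after A-485 (-4.56 ± 0.23, adjusted p = 3.06e-08). Ptdss2, a phosphatidylserine synthase, had 89.8 and 112 against 3.6 and 1.91 FPKM (-4.56 ± 0.19, adjusted p = 1.08e-08), and has a still-open peak as well. Pwp1 was at 34.9 and 32.5 against 1.06 and 1.55 FPKM (-4.87 ± 0.23), Fbxo15 at 229 and 245 against 11.1 and 7.11 FPKM (-4.80 ± 0.15), and Mgll at 8.74 and 4.97 against 0.26 and 0.10 FPKM (-5.02 ± 0.48), with adjusted p of 2.14e-08, 3.98e-09 and 4.86e-06. Ficd was still lower, at 75.7 and 83.3 against 7.28 and 4.70 FPKM (-3.93 ± 0.20), and so was Rplp0, at 321 and 270 against 48.4 and 37.9 FPKM (-2.99 ± 0.16). The DMSO libraries of these genes lay above every A-485 library.

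Of 83 ribosome biogenesis genes, 5 (6.02%) were at kept-open promoters, near the 5.18% of all protein-coding genes. Lower RNA at late 2-cell was called for 4 of the 5 (5 of 5 with mitochondrial scaling), against 16.8% of all genes (24.4%). Nifk, a nucleolar protein that binds Ki-67, had 94.9 and 72.2 against 9.79 and 10.3 FPKM (-3.34 ± 0.19, adjusted p = 5.51e-08). Rrp1, of ribosomal RNA processing, had 20.8 and 19.4 against 3.78 and 5.55 FPKM (-3.21 ± 0.29), and Nob1, the endonuclease that matures 18S RNA, 34.7 and 30.6 against 1.47 and 5.73 FPKM (-3.88 ± 0.31). Nol10 had 37.7 and 38.4 against 24.3 and 22.6 FPKM, under 2-fold (-0.90 ± 0.14). Of maternal genes, Dppa3, which protects the maternal genome from demethylation, had 1210 and 987 against 220 and 266 FPKM (-2.41 ± 0.14, adjusted p = 9.93e-08), with a still-open peak at its promoter too. The splicing factor gene Prpf3 had 21.5 and 19.2 against 13.4 and 9.32 FPKM (-1.47 ± 0.21).

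**Figure D5:**
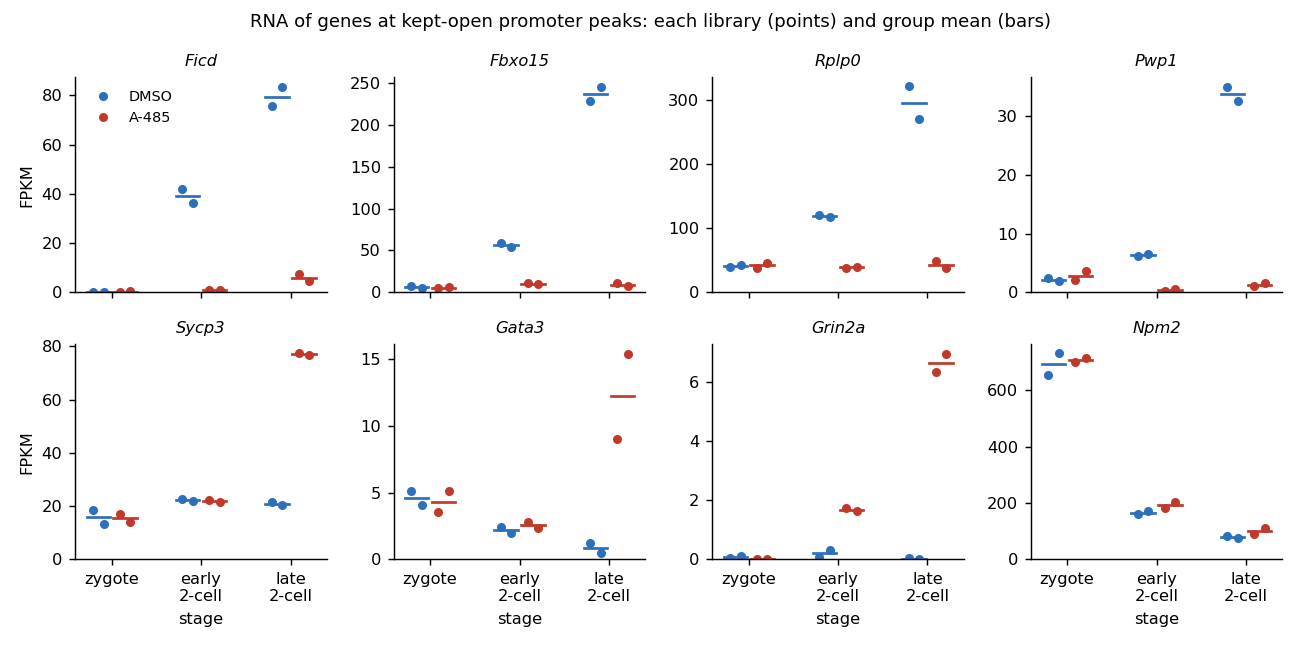
FPKM of 8 genes at kept-open promoter peaks by stage (x axis), from zygote to late 2-cell, with DMSO in blue and A-485 in red, on linear axes from 0. Points are the 2 libraries of a group and bars their mean. Ficd, Fbxo15, Rplp0 and Pwp1 are low after A-485 at the 2-cell stages, Sycp3, Gata3 and Grin2a are high at late 2-cell, and Npm2 is lower at early 2-cell than in zygotes in both groups.

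Among the genes called lower at early 2-cell, 31 were also called lower at late 2-cell, 15 were not called there and 4 were called higher. These comparisons share no library, but the same split was not made over all genes called lower at early 2-cell. The counts therefore describe these genes and do not set them apart from others. Tbx20 was one of the 4 called higher at late 2-cell, with 5.60 and 2.75 FPKM in DMSO and 6.72 and 7.72 FPKM in A-485-treated libraries (1.16 ± 0.39, adjusted p = 0.0342). This call was lost with mitochondrial scaling (0.59, adjusted p = 0.26) and without DMSO replicate 2 (0.79) or A-485 replicate 1 (0.64). Gabbr1 was no longer called, at 7.57 and 13.2 against 16.8 and 14.6 FPKM (-0.02 ± 0.26). As an interaction between stage and treatment, tested by edgeR over 8 libraries, the effect of A-485 differed between zygote and early 2-cell in 63 of 1225 tested genes at kept-open promoters (5.14%), against 5.66% of all genes tested, with 19 (1.55%) above and 44 (3.59%) below 0, against 1.0% and 4.65%. Between early and late 2-cell it differed in 300 of 1288 (23.3%), against 20.0% of all genes, with 197 (15.3%) above and 103 (8.0%) below 0, against 10.1% and 9.9%. The interactions were fitted with TMM scaling alone. The balance of late 2-cell calls turned with mitochondrial scaling, and its part in these counts was not tested.

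The normal change of these genes was read from DMSO embryos alone. From zygote to early 2-cell, 243 of 1160 tested genes (20.9%) fell and 86 (7.41%) rose, against 14.9% and 11.2% of all genes tested. The median log2 fold change was -0.22, and 0.08 over all genes. With mitochondrial scaling 608 (52.4%) fell and 33 (2.84%) rose, against 39.5% and 6.38% of all genes. The median was 0.30 below that of all genes under both scalings, which move all genes nearly alike and so cannot check this difference. Genes at still-open promoters had 20.8% that fell and 13.1% that rose. This comparison shares its zygote and early 2-cell DMSO libraries with the A-485 comparisons of those stages.

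The genes that fell included stores of the oocyte. Npm2, the nucleoplasmin that remodels sperm chromatin, had 653 and 731 FPKM in zygotes and 159 and 170 FPKM at early 2-cell in DMSO (-1.98 ± 0.09, adjusted p = 8.87e-10). Nlrp2, of the maternal NLR family, had 18.3 and 18.4 against 7.31 and 6.94 FPKM (-1.27 ± 0.13). Cdc25a, a phosphatase that activates cyclin-dependent kinases, went from 59.0 and 60.6 to 8.35 and 8.46 FPKM (-2.71 ± 0.10), and Sdhd, a subunit of succinate dehydrogenase, from 36.8 and 34.9 to 1.75 and 1.63 FPKM (-4.31 ± 0.21, adjusted p = 2.7e-09). Zfp442 went from 8.69 and 8.56 to 0.39 and 0.65 FPKM (-4.07 ± 0.26). None of these 5 was called after A-485 at any stage. Rnaset2a and Rnaset2b, which are near-identical copies whose counts may be divided wrongly, fell by 3.79 each. Cox17, a copper chaperone of cytochrome oxidase, had 79.2 and 73.8 against 15.8 and 28.0 FPKM, while its counts fell by 3.96 ± 0.37 on the log2 scale, so its 2 measures disagreed.

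Of 53 replication and cell cycle genes listed, 4 were at kept-open promoters, and 3 of these fell from DMSO zygote to early 2-cell, where 14.9% of all genes fell, Cdc25a, the mitotic checkpoint kinase Bub1 (49.9 and 30.4 against 17.0 and 11.4 FPKM) and the replication kinase Cdc7 (15.5 and 14.3 against 5.73 and 3.76 FPKM). Rfc5, of the clamp loader of replication, was called higher (8.81 and 7.20 against 16.6 and 14.6 FPKM, 1.12 ± 0.16), fell under 2-fold without zygote DMSO replicate 2 (0.96), and its sign turned with mitochondrial scaling (-0.15, adjusted p = 0.487). After A-485 none of the 4 was called at any stage with TMM scaling, and 1 was lower at late 2-cell with mitochondrial scaling.

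Minor ZGA genes, the first to be transcribed, were listed by the study from embryos treated with the transcription inhibitor DRB against DMSO controls. The DRB libraries are not among those used here, and since its controls may be, the counts are not independent evidence of a direction. Of 557 early 2-cell minor ZGA genes, 16 were at kept-open promoters. In DMSO embryos 9 of the 16 rose from zygote to early 2-cell (8 with mitochondrial scaling), where 11.2% of all genes rose (6.38%). After A-485 8 were lower and 1 higher at early 2-cell, where 7.9% and 0.402% of all genes were. At late 2-cell 6 of 15 tested were lower and 1 higher, against 16.8% and 10.5% of all genes. With mitochondrial scaling 8 were lower and 1 higher there, against 24.4% and 6.65%. Besides Ficd and Phrf1 they held Klhl11, an adaptor of Cullin 3 ligases, with 58.1 and 51.6 against 14.9 and 18.4 FPKM at early 2-cell (-1.70 ± 0.12, adjusted p = 1.1e-06), and Rprd2, a binder of the RNA polymerase II tail, with 10.4 and 7.28 against 1.49 and 2.42 FPKM (-2.05 ± 0.19, adjusted p = 1.17e-05). Of the 30 zygote minor ZGA genes, Gm49366 was the one member.

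Over all annotated genes 2.53% were at kept-open promoters, and 5.18% of protein-coding ones. The other lists had, as counts of those listed, 13 of 1907 Polycomb targets, 5 of 173 developmental transcription factors, 4 of 34 genes of the acetylation machinery, 3 of 36 oocyte and maternal genes, 2 of 28 pluripotency and first lineage genes, 2 of 73 replication-dependent histones, 1 of 81 cytoplasmic ribosomal proteins, 1 of 47 splicing genes, 1 of 45 imprinted genes, 0 of 24 2-cell genes and 0 of 1107 olfactory receptors. The Polycomb targets, with 0.682%, were under both shares, and the acetylation machinery (11.8%), oocyte and maternal (8.33%) and pluripotency (7.14%) lists were above both, each with at most 4 members. These 3 lists also had 10, 4 and 3 genes at still-open promoter peaks, so their shares are not shown to be particular to kept-open ones. Of the 6 Polycomb targets tested at late 2-cell, Klf14, a Klf factor, was called higher (0 and 0 against 1.58 and 1.08 FPKM, adjusted p = 0.000305). The deacetylase genes Hdac3, Hdac10, Hdac11 and Sirt3, the 4 members of the acetylation machinery, were not called after A-485 at any stage. Of the developmental factors, Foxn2 (124 and 114 against 124 and 132 FPKM at late 2-cell) and Pax5 (1.27 and 1.36 against 1.34 and 1.93 FPKM) were not called, and Zfp42, a marker of pluripotent cells, was not either (9.03 and 9.56 against 10.1 and 8.72 FPKM). The histone genes Hist1h2aa and Hist1h2ba share 1 peak and were not called, with counts that copies of the family may share.

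The genes at the 6 strongest promoter peaks were not among those called after A-485. Ccdc82 had 8.35 and 8.04 FPKM in late 2-cell DMSO and 15.9 and 13.2 FPKM in A-485-treated libraries (0.40 ± 0.18, adjusted p = 0.107). For Mpv17l the values were 2.37 and 2.14 against 5.75 and 4.08 FPKM, under 2-fold by counts (0.92 ± 0.34, adjusted p = 0.0496). Vps41 had 4.50 and 3.70 against 7.16 and 8.01 FPKM (0.66 ± 0.27), while Fh1 (6.48 and 3.32 against 9.33 and 5.17 FPKM) and Depdc1a (5.35 and 5.82 against 5.83 and 5.07 FPKM) overlapped between groups. Lta4h stayed under 1 FPKM in all 12 libraries, so an open peak of high fold enrichment stood at a promoter with little RNA.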

How the data were processed

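The authors processed ATAC-seq reads with the ENCODE pipeline and deposited 1 list of reproducible peaks per stage and treatment, pooled over 2 replicates, with a fold enrichment (a ratio) and −log10 q per peak (GRCm38 per the processing notes). Aligner and peak caller versions are not given in the sources used here. For RNA-seq, the authors trimmed reads with Trimmomatic 0.39, mapped them to GRCm38 with STAR 2.7.8a and deposited expected counts, which are not normalized, and FPKM from RSEM 1.3.1 for each library. No file gave counts per ATAC-seq replicate.

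Lines of the same position were joined (16283 lines to 10214 late 1-cell DMSO peaks), lists were compared by overlaps of at least 1 bp, and peaks were placed against 141862 start sites of GENCODE M21. Expected counts were rounded and tested with edgeR 4.0.16 in R 4.3.3 (quasi-likelihood F test, TMM, 4 libraries a comparison, at least 10 counts summed over them). Of 55385 gene identifiers, 55144 matched the annotation. A group was at the floor with at most 3 counts in each library. Samples were grouped by their own labels, and the replicates of a group differed beyond sampling noise. Alternatives were DESeq2 1.42.0, 2 other scalings, no filter or FPKM cutoff, a replicate block, leaving out each library, stricter −log10 q, other overlaps, other start sites and other sequence windows. The scripts for peaks and counts were tested on simulated data.

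The members and lists were chosen with earlier results of these data known. Named genes are, per comparison and direction, the 5 called genes with the largest change among those with at least 5 FPKM in the higher group and groups that did not overlap, the genes of the 6 strongest promoter peaks, and up to 4 of the most abundant members of each list. Promoter sequences were shortened to the part before the first exon that the peak overlaps once the files were seen. CUT&RUN data, the TSA libraries and the fold changes of the study's own comparisons were not used here.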

Additional observations from a re-analysis of the deposited data

Results flagged for a closer look

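The effect of A-485 on the RNA of some named genes at kept-open promoters differed between stages by the interaction term of edgeR (adjusted p under 0.05). Each value is the difference of the 2 effects on the log2 scale, with TMM scaling alone. Mitochondrial scaling, which moved the late 2-cell effects downward, was not used for this term. The early 2-cell effect was below the zygote effect for Nifk (-0.64), Prpf3 (-0.82), Rplp0 (-1.60), Klhl11 (-1.89), Rprd2 (-1.90), Ddit4l (-2.14), Phrf1 (-2.37), Fbxo15 (-2.78), 1700021F05Rik (-2.97), Pwp1 (-4.22), Ficd (-5.68) and Tbx20 (-6.43), and above it for Grin2a (7.78). In zygotes Tbx20 and Grin2a were at or under 3 counts in the lower group, so their values are fitted ones and no bound.

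The late 2-cell effect was below the early 2-cell effect for Rprd2 (-0.64), Nol10 (-0.99), Klhl11 (-1.09), Rplp0 (-1.31), Zfp638 (-1.45), Fbxo15 (-1.74), Rrp1 (-2.15), Phrf1 (-2.26), Dppa3 (-2.48), Nifk (-2.65), Ptdss2 (-3.78), Nob1 (-3.84) and Gm49366 (-12.06). It was above it for Cdc25a (0.76), Hist1h2ba (1.39), Zim1 (1.42), Ficd (1.48), Sycp3 (1.77), Gabbr1 (2.97), Gata3 (3.24), Grin2a (4.21), Tbx20 (4.25), Taf7l (4.60), Gm37785 (5.97), Pantr1 (6.09), Gm12454 (6.25), 9630013D21Rik (7.40) and Klf14 (8.63). Of these, Gm49366 at early 2-cell and Grin2a, Gm37785, Pantr1, Gm12454, 9630013D21Rik and Klf14 at late 2-cell rest on a group at or under 3 counts. These pairs of comparisons share no library.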

How the results depend on the processing

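With the same number of peaks from each list, 40.6% of late 1-cell peaks without an early 2-cell DMSO peak were kept open. The late 1-cell A-485 list then held 75.6% of kept-open, 85.3% of still-open and 29.6% of closed peaks, and 78.8% of kept-open peaks were at promoters and 19.09% distal. With start sites of protein-coding transcripts only, 52.9% were promoter and 44.1% distal peaks. With mitochondrial scaling, late 2-cell calls were 122 higher and 215 lower, calls from DMSO zygote to early 2-cell 33 higher and 608 lower, and Rfc5 turned to -0.15. Early 2-cell calls of higher RNA were 8 with no filter on low counts and 10 with no FPKM cutoff.

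The median log2 fold change of the genes minus that of all genes was 0.049 in zygotes and 0.098 at late 2-cell with no filter. At late 2-cell it was 0.345 for genes with no early 2-cell DMSO peak within 1.0 kb and 0.13 for protein-coding ones set against all genes, where the main value was 0.268. With a replicate block, early 2-cell calls of higher RNA were 10. Deviations of same-numbered libraries correlated at 0.087 in zygotes, -0.0009 at early 2-cell, -0.051 at late 2-cell and -0.055 in DMSO across stages. With 2 libraries a group, these values cannot show whether the replicate numbers pair the samples.

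Leaving out each replicate in turn gave 0 to 1 zygote genes lower (1 without A-485 replicate 2), 3 to 9 early 2-cell genes higher (9 without DMSO replicate 2 and 9 without A-485 replicate 2) and 42 to 49 lower, and 190 to 208 late 2-cell genes higher and 118 to 133 lower. The late 2-cell difference of medians ran from 0.188 without DMSO replicate 1 to 0.378 without A-485 replicate 2. Of the results that answer a comparison 157 values stayed within the limits and 25 moved. Of those of named genes 755 stayed, 23 lost the call and 1 reversed. The cause was not tested. Pooled lists give no replicate error for peaks, and the late 2-cell A-485 libraries were the shallowest.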
